A study of Mus musculus with 15 samples.

Results

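The mitochondrial ribosome proteins examined here are the genes whose symbol in the deposited expression table starts with Mrpl or Mrps followed by a digit. The rule found 72 of the 16199 genes in the table, 44 named Mrpl and 28 named Mrps, and used no measured value. The mitochondrial ribosome sits in the mitochondrial matrix and translates the few proteins encoded by mitochondrial DNA, which are core subunits of the respiratory chain and of ATP synthase. Its RNAs come from mitochondrial DNA, but all of its proteins are encoded in the nucleus, made in the cytosol and imported, so the mRNAs measured here are nuclear transcripts. Some of these proteins have a counterpart in bacterial ribosomes, and others were added during the evolution of mitochondria. In heart muscle, which depends on oxidative metabolism, the supply of these proteins is part of how the respiratory chain is built.

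Symbols of this family follow the subunit in which a protein was first placed, and a few do not match the place known today. Mrps30 and Mrps18a belong to the large subunit, and Mrps36 is a component of the 2-oxoglutarate dehydrogenase complex of the citric acid cycle. By place, the 72 genes comprise 46 of the large subunit (30 with a bacterial counterpart and 16 specific to mitochondria), 25 of the small subunit (16 and 9) and Mrps36. Ribosome proteins with other symbols, such as Dap3 and Gadd45gip1, fell outside the rule and are described separately.

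Poly(A)+ RNA from the ventricles of 15 mice was sequenced in 5 groups of 3 animals. All mice were of the FVB background, were 14 to 16 weeks old and ate food with 2 g/kg doxycycline by the labels, although another source of the study gives a different dose. The 3 controls had the MHCrtTA transgene and no second one, and their doxycycline lasted 72 h. The 12 induced mice, with MHCrtTA and TRECUGBP2, received it for 12 h, 24 h, 72 h or 7 d. In these mice a cardiac myosin heavy chain promoter drives rtTA, a doxycycline-dependent activator, in cardiomyocytes, and rtTA switches on a FLAG-tagged human CELF2 transgene, an RNA-binding protein that acts on splicing and mRNA stability. The induced mice came from 1 type of mating, the transgene was added to an intact endogenous gene, and the time on doxycycline matched the controls only at 72 h. Expression was deposited as RPKM, read density over the constitutive coding part of a gene relative to its length and to the mapped reads, so levels of different genes are compared per length.

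The gene listed as Cugbp2, an older symbol of Celf2, read 8.54 to 11.3 RPKM in controls and 84.5 to 359 RPKM in induced hearts, with no overlap, although it is not known from the sources used here how far reads of the human transgene count towards it. The table gives no read totals, so library depth is unknown and the precision of a value is judged by the spread between hearts. A code in the sample titles, whose meaning the labels do not give, splits the hearts unevenly over time. With the 3 codes written as A, B and C, code A holds replicate 1 of every group and 72 h replicate 2. Code B holds replicates 2 and 3 of the control, 12 h and 24 h groups, and code C holds 72 h replicate 3 with 7 d replicates 2 and 3. Y-linked mRNA was present in 1 control, no 12 h heart, 2 hearts at 24 h and all hearts at 72 h and 7 d. Cardiomyocyte markers dominated every ventricle, and all 8 of them were detected. Their summed level was 41009 to 43118 RPKM in controls and 39699 to 40999 RPKM at 7 d. The sum hides opposite changes at an adjusted p under 0.05 (limma): Actc1 was higher at 7 d (log2 change 0.63), Myh6 (-0.36) and Pln (-0.41) lower. The other cardiomyocyte markers did not pass. Macrophage markers (6 of 6 detected) summed to 62.3 to 68.3 RPKM in controls and 45.4 to 59.7 RPKM at 7 d, and adipocyte markers (4 of 4) to 12.0 to 18.8 and 6.26 to 8.06 RPKM. No tested macrophage marker passed at 7 d: C1qa and C1qb had log2 changes of -0.31 and -0.37, and Csf1r of 0.04. Of the tested adipocyte markers, Cfd (-1.23) and Car3 (-0.93) were lower at 7 d, with adjusted p of 0.00459 and 0.0252 (limma). Both were also lower at 72 h (0.0132 and 0.0414), and Adipoq (-0.56 at 7 d) did not pass at either time. Summed endothelial, fibroblast, smooth muscle, atrial and erythroid markers overlapped between controls and 7 d, and the part of cell composition in the results below was not tested.

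All 72 genes were expressed in every heart, and no value was under 11.55 RPKM. Mean levels over the 15 hearts ran from 13.5 to 187 RPKM with a median of 42.3 RPKM, beside 8.75 RPKM for the 10557 genes that were tested. The median was 42.1 RPKM for Mrpl genes and 44.1 RPKM for Mrps genes, so the symbols did not divide the levels. The highest means belonged to Mrpl51, a mitochondria-specific protein of the large subunit (187 RPKM), Mrpl30 (157 RPKM), Mrps21 (147 RPKM), Mrpl12, the counterpart of the bacterial stalk protein that contacts translation factors (132 RPKM), and Mrpl28 (119 RPKM). The lowest belonged to Mrps22 (13.5 RPKM), Mrps2 (15.0 RPKM), Mrps27 (15.7 RPKM), Mrpl1 (16.1 RPKM) and Mrpl19 (16.8 RPKM). Neighbours in this order were not always apart by more than the spread between hearts, since Mrpl51 read 167 to 205 RPKM and Mrpl30 137 to 181 RPKM. The 13.9-fold span from the highest to the lowest mean was far wider than any difference between groups.

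Variation between hearts was small for most of the family. The coefficient of variation over the 15 hearts had a median of 13.1%, beside 17.0% for all genes tested and 14.6% for the 3517 genes within the same range of mean levels, and it ran from 4.76% for Mrpl51 to 25.9% for Mrpl34. In 10 genes it was above 20%: Mrpl34, Mrpl54, Mrps18b, Mrps34, Mrpl52, Mrpl9, Mrpl43, Mrpl19, Mrps27 and Mrpl46. Mrpl9, Mrpl19, Mrpl46, Mrps18b and Mrps27 are among the genes called at 7 d below. In all but Mrpl9 and Mrpl19, the hearts of code A were the lowest in each of the 5 groups. Mrpl34, Mrps34 and Mrpl52 were also among 8 genes whose 6 hearts of code A all lay below the other 9. Mrpl34, for example, read 26.9 to 36.1 RPKM in those 6 hearts and 41.4 to 59.5 RPKM in the other 9. Over the whole family, the hearts of code A lay lowest in every group for 26 of the 72 genes, or 36.1%, beside 23.0% of all genes tested.

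**Figure D1:**
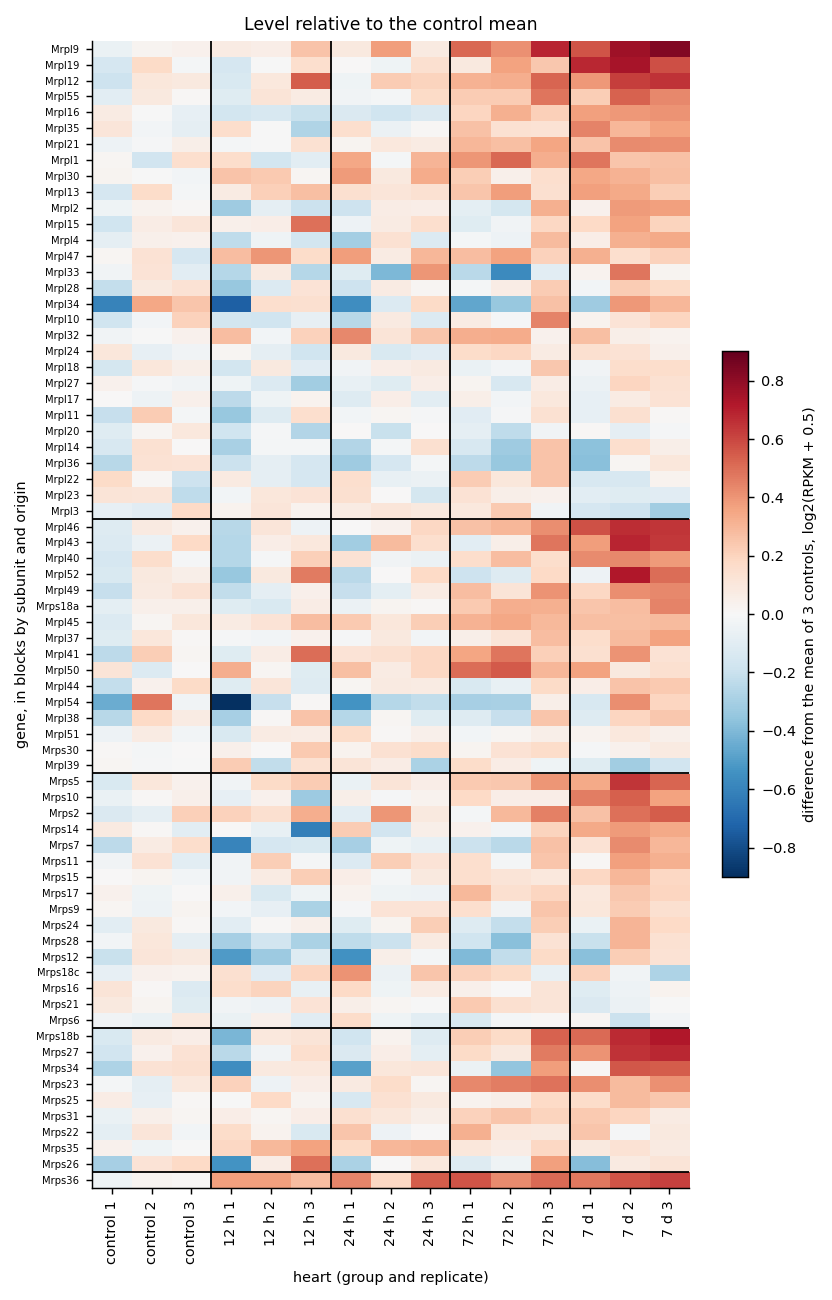
Level of each of the 72 mRNAs in each of the 15 hearts (columns, by group and replicate), as the difference of log2(RPKM + 0.5) from the mean of the 3 controls; blocks from top to bottom are the large subunit with and without bacterial counterpart, the small subunit with and without, and Mrps36. Red fills most of the 7 d columns, while the hearts at 12 h and 24 h show both colours, and replicate 1 of control and 12 h is blue for Mrpl34 and Mrpl54.

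After 12 h and 24 h of induction, no gene of the family passed an adjusted p of 0.05 against controls (limma across all genes, Benjamini-Hochberg adjustment). Before adjustment, 4 and 5 genes had a p below 0.05 (limma), which without adjustment for 72 tests is not read as a change. All genes tested gave few calls as well, 0.104% higher and 0.284% lower at 12 h, and 0.0379% higher and 0.0568% lower at 24 h. The median log2 change over the 72 genes was -0.01 at 12 h and 0.03 at 24 h, beside -0.10 and -0.10 for all genes tested. Changes spread with an SD of 0.14 log2 units at 12 h and 0.12 at 24 h.

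Mrps36, the 2-oxoglutarate dehydrogenase component, had the most positive change of the family at both early times. It read 67.3, 70.3 and 69.6 RPKM in controls, 89.5, 89.2 and 83.9 RPKM at 12 h, and 93.8, 78.6 and 101 RPKM at 24 h. All 6 early hearts lay above all 3 controls. The log2 changes were 0.34 ± 0.09 (SE) at 12 h and 0.39 ± 0.09 at 24 h, with adjusted p of 0.162 and 0.174 (limma), and both passed with the title code as a covariate, at adjusted p of 0.0344 and 0.0298. In the same fit 1.11% of all genes tested were called higher and 6.2% lower at 12 h, and 0.549% and 2.54% at 24 h. Neither change of Mrps36 passed with Y-linked mRNA as a covariate (adjusted p of 0.246 and 0.27) or with both covariates (0.072 and 0.0618). Mrps35, a mitochondria-specific protein of the small subunit, and Mrpl47 followed at 12 h with log2 changes of 0.28 each. At 24 h Mrpl30 and Mrpl32 followed with 0.27 each, neither past the test. The most negative changes at 12 h were those of Mrpl54 (-0.38), Mrps12 (-0.32) and Mrps7 (-0.29), and at 24 h those of Mrpl54 (-0.34), Mrpl34 (-0.17) and Mrps12 (-0.17), all with groups that overlapped.

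After 72 h, 3 of the 72 genes had risen and none had fallen, that is 4.17% of the family, beside 0.237% of all genes tested called higher and 0.36% called lower. Control and 72 h hearts had spent the same time on doxycycline. The 3 were Mrps36, Mrps23 and Mrpl9, a protein of the large subunit with a bacterial counterpart. The median log2 change was 0.12, beside -0.08 for all genes tested. Of the 72 changes 56 were positive, or 77.8%, beside 35.4% of all genes tested. For 24 genes all 72 h hearts lay above all controls (7.35% of all genes tested), and for 1, Mrpl33, all lay below (10.8%).

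Mrps36 reached 102, 93.1 and 98.7 RPKM at 72 h, a log2 change of 0.50 ± 0.09 with an adjusted p of 0.0335 (limma). Mrps23, a mitochondria-specific protein of the small subunit, read 67.0, 64.1 and 72.5 RPKM in controls and 91.5, 93.3 and 95.5 RPKM at 72 h, a log2 change of 0.46 ± 0.09 with an adjusted p of 0.0363. Mrpl9 read 17.7, 18.8 and 18.9 RPKM in controls and 26.6, 24.7 and 30.0 RPKM at 72 h, a log2 change of 0.54 ± 0.11 with an adjusted p of 0.0491. Controls and 72 h hearts did not overlap for any of the 3. These calls were close to the threshold: with the title code as a covariate 14 genes passed, all higher (1.25% of all genes tested), with Y-linked mRNA as a covariate none did, and leaving out any control, or 72 h replicate 1 or 2, left none. The log2 changes of the 3 genes stayed positive in all 16 alternative fits. Since the groups did not overlap, another pseudocount or filter, the 2 groups alone or leaving out a heart cannot alter a sign. Only the scaling and covariate fits could have done so.

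At 7 d, 16 of the 72 genes were higher than in controls and none was lower. That is 22.2% of the family, beside 5.83% of all genes tested called higher and 4.16% called lower. The increases were moderate, from 1.25-fold for Mrps18a to 1.65-fold for Mrpl9. They comprised 10 of the 46 proteins of the large subunit, 5 of the 25 of the small subunit, and Mrps36. The median log2 change was 0.21 for the family and 0.03 for all genes tested. Of the 72 changes 59 were positive, or 81.9%, beside 54.5% of all genes tested. For 35 genes all 7 d hearts lay above all controls (18.3% of all genes tested) and for 2, Mrpl3 and Mrpl39, all lay below (13.4%).

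**Figure D2:**
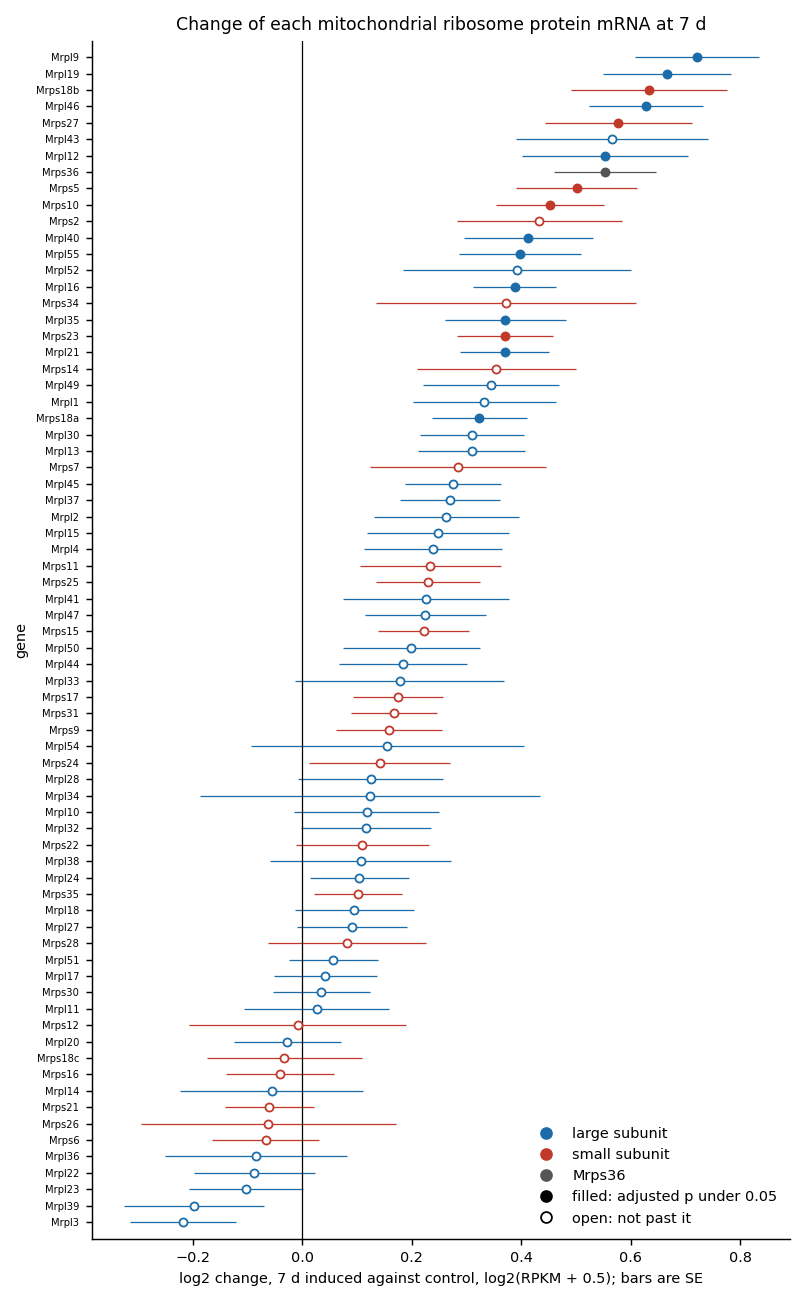
Log2 change of each of the 72 mRNAs between 7 d and control hearts with its SE from the limma fit (3 hearts per group), ordered by size; filled points have an adjusted p under 0.05. The 16 filled points lie between 0.32 and 0.72, and none of the 13 negative changes is filled.

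Among large subunit proteins with a bacterial counterpart, 7 of 30 had risen. Mrpl9 went on from its 72 h level to 27.6, 31.7 and 33.3 RPKM, and its log2 change against controls was 0.72 ± 0.11 with an adjusted p of 0.00115 (limma). Mrpl19 read 12.9, 16.3 and 14.2 RPKM in controls and 23.4, 24.4 and 21.7 RPKM at 7 d, a log2 change of 0.67 ± 0.12 with an adjusted p of 0.00238. Mrpl16, whose bacterial counterpart lies near the peptidyl transferase centre, read 38.2, 36.3 and 34.5 RPKM in controls and 47.0, 47.8 and 48.2 RPKM at 7 d, a log2 change of 0.39 ± 0.08 with an adjusted p of 0.00537. For each of these genes the 7 d hearts stood clear of the controls. Mrpl19 and Mrpl16 were also higher at 7 d than in all 12 other hearts, while Mrpl9 overlapped with 72 h. Such a position above all 12 others was found for 7 of the 72 members, beside 7.36% of all genes tested. Mrpl12, also known to bind the mitochondrial RNA polymerase, read 96.5, 118 and 117 RPKM in controls and 144, 169 and 172 RPKM at 7 d, a log2 change of 0.55 with an adjusted p of 0.0333. Its 12 h replicate 3 read 160 RPKM, within the range of the 7 d hearts. Mrpl21, Mrpl55 and Mrpl35 had log2 changes of 0.37, 0.40 and 0.37 with adjusted p of 0.0112, 0.0357 and 0.0476.

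The large subunit proteins specific to mitochondria gave 3 called genes of 16, and 15 of their 16 changes were positive (54.5% of all genes tested). Mrpl46, a protein of the central protuberance, read 19.3, 22.1 and 21.5 RPKM in controls, 25.2, 25.8 and 28.1 RPKM at 72 h, and 31.5, 33.5 and 33.0 RPKM at 7 d. Every 7 d heart exceeded all 12 others, and every 72 h heart exceeded all controls. The log2 change at 7 d was 0.63 ± 0.10 with an adjusted p of 0.00172 (limma). Mrpl40, also of the central protuberance, read 26.4, 32.9 and 29.3 RPKM in controls and 39.6, 39.9 and 38.4 RPKM at 7 d, with a log2 change of 0.41 and an adjusted p of 0.0392. Mrps18a, the other called gene, read 58.2 to 64.0 RPKM in controls and 73.7 to 84.6 RPKM at 7 d, with a log2 change of 0.32 and an adjusted p of 0.0304. Mrps30, likewise of the large subunit in spite of its symbol, differed little: it read 18.3 to 18.7 RPKM in controls and 18.4 to 19.6 RPKM at 7 d, a log2 change of 0.03 ± 0.09 (adjusted p = 0.862).

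Of the small subunit, 2 of 16 proteins with a bacterial counterpart and 3 of 9 specific to mitochondria had risen. Mrps10 read 27.0, 28.5 and 29.2 RPKM in controls and 39.0, 41.2 and 36.4 RPKM at 7 d, a log2 change of 0.45 ± 0.10 with an adjusted p of 0.0101 (limma). Mrps5 read 16.9, 20.1 and 19.2 RPKM in controls and 23.8, 29.4 and 27.1 RPKM at 7 d, a log2 change of 0.50 ± 0.11 with an adjusted p of 0.0107. The 7 d hearts of Mrps10 lay above all 12 others, whereas those of Mrps5 overlapped with 72 h. Mrps18b read 28.3, 32.9 and 32.5 RPKM in controls and 44.7, 49.8 and 51.6 RPKM at 7 d, a log2 change of 0.63 ± 0.14 with an adjusted p of 0.012. Mrps27, a pentatricopeptide repeat protein, read 12.3, 14.3 and 15.3 RPKM in controls and 18.6, 22.1 and 22.5 RPKM at 7 d, a log2 change of 0.58 ± 0.13 with an adjusted p of 0.0144. In both, 72 h replicate 3 (45.2 RPKM for Mrps18b and 19.4 RPKM for Mrps27) already fell among the 7 d hearts, and it shares title code C with 2 of them. Mrps23 was not higher at 7 d than at 72 h, with 90.5, 82.6 and 90.4 RPKM and a log2 change against controls of 0.37 (adjusted p = 0.0157). Mrps36 read 96.4, 102 and 106 RPKM, a log2 change of 0.55 ± 0.09 (adjusted p = 0.00195).

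**Figure D3:**
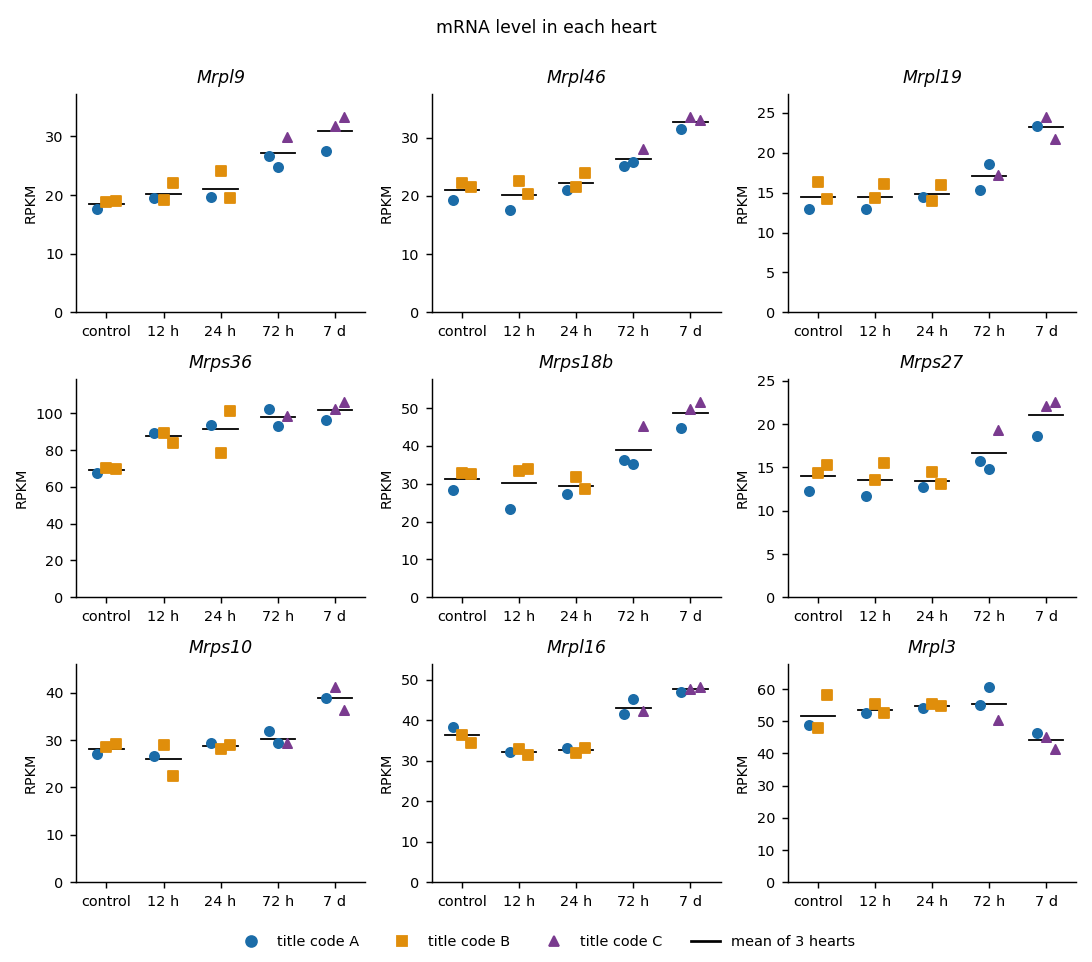
RPKM of 9 of the mRNAs in each of the 15 hearts by group, with the mean of 3 hearts as a bar and symbols for the title code. Mrps36 is above the controls from 12 h on, as is Mrpl9 by smaller margins until 72 h, Mrpl46 is above them from 72 h on, Mrpl19 and Mrps10 stand apart at 7 d, and the 7 d hearts of Mrpl3 lie below the controls.

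The genes with the most negative changes at 7 d did not pass the test. Mrpl3, whose bacterial counterpart is among the first proteins to join the large subunit during assembly, read 48.7, 47.8 and 58.2 RPKM in controls and 46.2, 45.0 and 41.2 RPKM at 7 d, a log2 change of -0.22 ± 0.10 (adjusted p = 0.186, limma). Mrpl39 read 50.6 to 51.6 RPKM in controls and 40.9 to 47.4 RPKM at 7 d, a log2 change of -0.20 ± 0.13 (adjusted p = 0.387). Mrpl23 had a log2 change of -0.10 and overlapped with controls. Among the 5 most abundant members Mrpl12 alone was called, and Mrpl51, the most abundant, changed by 0.06 ± 0.08 (adjusted p = 0.741). Of the 16 called genes, 12 were among the 36 of lower mean level and 4 among the 36 of higher level.

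Within title code A there is 1 control and 1 heart at 7 d, hence no test, and both are also part of the comparison above. The 7 d heart exceeded the control for 58 of the 72 members, or 80.6%, beside 49.9% of all genes tested. The median ratio in this pair was 1.20 for the family and 1.00 for all genes tested. The control with Y-linked mRNA, which the 7 d hearts share, was below all 7 d hearts for 45 of the 72 members, beside 31.5% of all genes tested. With Y-linked mRNA as a covariate 5 of the 16 genes were still called (Mrpl9, Mrpl16, Mrpl19, Mrpl46 and Mrps36), beside 2.29% of all genes tested called higher. Leaving out single hearts gave 6 to 13 called genes, beside 2.96% to 4.69% of all genes tested called higher. The count was 6 without 7 d replicate 2, 7 without 7 d replicate 3 and 7 without control replicate 1. All 16 log2 changes were positive in all 16 alternative fits, and Mrpl19 and Mrpl46 passed in each of them. Fits with another filter or of the 2 groups alone leave log2 changes as they are, so they cannot alter a sign. For all 16 genes every 7 d heart lay above every control, so another pseudocount or leaving out a heart cannot either. Only the scaling and covariate fits could have altered a sign. Every 7 d heart without title code A has code C, which no control has.

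**Figure D4:**
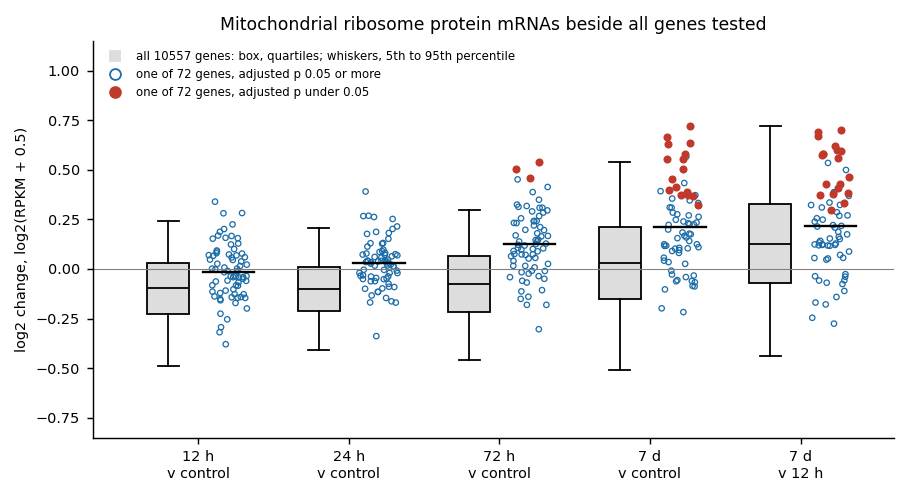
Log2 changes of the 72 mRNAs (points, with their median as a bar) beside all 10557 genes tested (boxes, quartiles; whiskers, 5th to 95th percentile) in 5 comparisons. The family's median is above that of all genes in each comparison, by between 0.08 (12 h) and 0.20 (72 h).

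Compared with 12 h of induction, 19 genes of the family were higher at 7 d and none was lower. This is 26.4% of the family, beside 11.8% of all genes tested called higher and 3.88% called lower. This comparison leaves out the controls but shares its 7 d hearts with the one above, and 14 genes were called in both. Against 12 h, the calls without a counterpart against controls were Mrpl2, Mrpl43, Mrpl49, Mrps7 and Mrps14. The most positive log2 changes were those of Mrps18b (0.70 ± 0.14), Mrpl46 (0.69 ± 0.10) and Mrpl19 (0.67 ± 0.12), with adjusted p of 0.00507, 0.000685 and 0.00184 (limma). Mrps14 read 52.5, 49.9 and 34.1 RPKM at 12 h and 66.3, 68.4 and 66.6 RPKM at 7 d, with no overlap and a log2 change of 0.58 (adjusted p = 0.016). Mrps36 and Mrpl12 were not called here. The 12 h level of Mrps36 was nearer to that at 7 d, with a log2 change of 0.21 ± 0.09. Mrpl12 had a log2 change of 0.39 ± 0.15, larger than that of the called Mrps23 (0.30 ± 0.09). Its 12 h hearts spread widely, at 99.7, 117 and 160 RPKM. All genes tested had a median log2 change of 0.13, which median-ratio scaling moved to 0.01. On that scale 10 genes of the family were called higher and 2, Mrpl3 and Mrps35, lower, beside 7.18% and 7.49% of all genes tested, and the family's median fell from 0.22 to 0.08. No 12 h heart had Y-linked mRNA and all 7 d hearts did, so sex and time cannot be told apart here. Once Y-linked mRNA entered the fit 1 gene (Mrpl16) was called, 1.39% of the family beside 1.5% of all genes tested called higher. Without 7 d replicate 2 or 7 d replicate 3 the count was 8, beside 5.74% and 6.33% of all genes tested called higher. Without 12 h replicate 2 it was 11, beside 6.7%.

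Other genes of mitochondrial translation were taken from lists chosen for their known roles. Beside the counts at 7 d, 5.83% of all genes tested were called higher and 4.16% lower, with a median log2 change of 0.03. Of 7 listed ribosome proteins outside the symbol rule, Gadd45gip1 and Chchd1 were higher at 7 d than in controls, with log2 changes of 0.50 and 0.31 (adjusted p of 0.0368 and 0.0455, limma). Dap3, the GTP-binding protein of the small subunit, had a log2 change of -0.01. The gene listed as D10Ertd322e, now Mrpl42, is another ribosome protein that the rule missed. Its mean of 341 RPKM was above that of every member, and its log2 change was 0.04 (adjusted p = 0.862, limma). Of 13 translation factors, 5 were higher and none lower, with a median log2 change of 0.35. They were the initiation factor Mtif2 (0.48), the elongation factors Tufm (0.50) and Gfm1 (0.38), Gfm2, which acts in ribosome recycling (0.47), and Guf1 (0.60). Of 21 assembly and rRNA modification genes, 5 were higher, among them the rRNA methyltransferase gene listed as Rnmtl1, now Mrm3 (0.64), and Gtpbp10 (0.58), and 1 was lower, the gene listed as Mett5d1, now Mettl15 (-0.59). Their median was 0.24.

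The mitochondrial aminoacyl-tRNA synthetases, which charge tRNAs for this ribosome, gave 1 called gene of 17, Fars2 (0.46), and a median log2 change of 0.08 at 7 d. That is 5.88% of them, close to the 5.83% of all genes tested called higher. Of 15 genes for mitochondrial transcription and mRNA handling, 4 were higher and none lower: Mterfd3, now Mterf2 (0.81), the gene listed as 1110002N22Rik, now Tefm (0.48), Papd1, now Mtpap (0.49), and Lrpprc, which stabilizes mitochondrial mRNAs (0.45). Of 18 genes of protein import, 3 were higher, Hspa9 (0.40), Grpel1 (0.40) and Timm23 (0.29). None of the 9 listed regulators of nuclear genes for mitochondria that were in the table was called at 7 d by limma, including Nrf1 (0.06), Gabpa (0.16), Esrra (-0.01) and Ppargc1b (0.26). Ppargc1a, also listed, was not among the genes with deposited values. At 72 h none of the genes in these lists was called.

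The family was set beside the respiratory chain and ATP synthase subunits and beside the cytosolic ribosome proteins. Most of the former belong to complexes that products of the mitochondrial ribosome join, but the Sdh genes on that list do not. At 7 d the 77 tested respiratory and ATP synthase subunits had a median log2 change of 0.01 against controls, with 1 called higher (Ndufa10, 0.33) and 5 lower, among them Sdhc (-0.69), Cox7a2 (-0.55) and Ndufc2 (-0.47). The 75 tested cytosolic ribosome proteins had a median of 0.08, with Rpl3 higher (0.45) and its muscle paralog Rpl3l lower (-0.85). Of all genes tested, 5.83% were called higher and 4.16% lower at 7 d, with a median of 0.03. At 12 h and 24 h the respiratory subunits had medians of 0.08 and 0.14, above the family's -0.01 and 0.03, while at 72 h and 7 d the family's medians of 0.12 and 0.21 were above their 0.05 and 0.01. These lists share all hearts, and the difference between them was not tested.

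**Figure D5:**
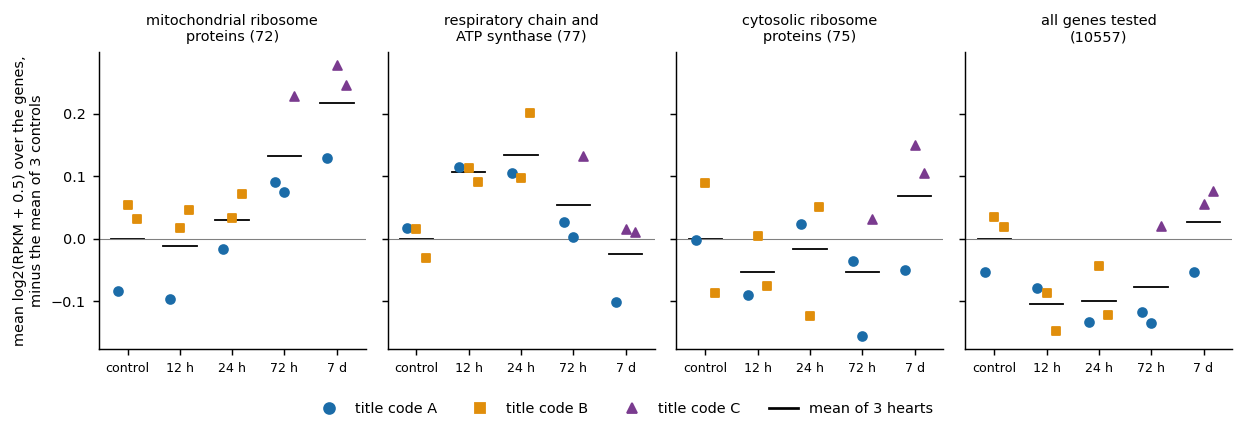
Mean of log2(RPKM + 0.5) over the genes of each set in each of the 15 hearts, minus the mean of the 3 controls, with bars for the mean of 3 hearts and symbols for the title code. For the 72 mitochondrial ribosome proteins the 7 d hearts lie between 0.13 and 0.28, above all controls, while the respiratory chain subunits lie between -0.10 and 0.02 at 7 d.

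Summed over the family, expression was 3564 ± 183 RPKM (SD, n = 3) in controls, 3547 ± 205 RPKM at 12 h, 3637 ± 108 RPKM at 24 h, 3856 ± 231 RPKM at 72 h and 4097 ± 245 RPKM at 7 d. The sums at 7 d, 3823, 4295 and 4172 RPKM, were all above the highest control, 3722 RPKM. Within title code A the sums were 3363 RPKM in the control, 3318 RPKM at 12 h, 3540 RPKM at 24 h, 3756 and 3691 RPKM at 72 h, and 3823 RPKM at 7 d. The hearts of code C had the highest sums, 4121 RPKM at 72 h and the other 7 d values. As the tissue is bulk ventricle, more cells of a type and more RNA per cell cannot be told apart.

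The genes of the family did not all follow its mean. Over the 15 hearts, 62 of the 72 genes had a positive Pearson correlation of log2(RPKM + 0.5) with the mean of the family, from 0.97 for Mrpl55 down to -0.58 for Mrpl39 and -0.53 for Mrpl3. Among all genes tested the 5 most like the mean were Mrpl55 (0.97), Gadd45gip1 (0.95), Naprt1 (0.95), Mrps27 (0.95) and Mrpl49 (0.95). Gadd45gip1 is itself a large subunit protein, outside the rule by its symbol. Mrpl55, Mrps27 and Mrpl49 form part of the mean, and all correlations share the 5 groups and the title codes, so they describe these hearts only.

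The genes lie on 17 chromosomes. Positions are given on mm9 from the GENCODE annotation of that build. Mrpl9 spans chr3:94247240-94255052 on the plus strand, Mrpl19 chr6:81907845-81915952 on the minus strand and Mrpl16 chr19:11844881-11849434 on the plus strand. Mrpl46 (chr7:85920122-85928417, minus strand) and Mrps11 (chr7:85928005-85937875, plus strand) overlap head to head, and coding sequence of Mrps11 lies under an exon of Mrpl46. Mrps11 had a log2 change of 0.23 at 7 d (adjusted p = 0.301, limma), beside 0.63 for Mrpl46. For 11 genes coding sequence lay under an exon of another annotated gene, including the called genes Mrpl12, Mrps18b and Mrps27, in which the other gene is on the opposite strand. The libraries were strand-specific, but the sources used here do not say whether the counting used strand.

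Promoters of genes for mitochondrial proteins are known to carry sites for NRF1, for GABPA of the ETS family and for YY1, so the RefSeq promoter windows (GRCm38.p6, 250 bases before to 50 bases from the start site) were searched on both strands for GCATGCGC (NRF1), CCGGAAG (ETS) and AAGATGGC (YY1). Windows were found for 63 of the 72 genes, 66 windows in all. NRF1 letters were in 12.1% of them, beside 2.71% of all 32851 windows and 5.11% of those of genes tested, ETS letters in 31.8% (8.86% and 17.6%), and YY1 letters in 16.7% (2.75% and 4.43%). Of the 15 windows of genes called at 7 d, 46.7% held at least 1 of the 3, and of the 51 windows of the other members 49.0% did, so presence of these letters did not divide the genes called at 7 d from the rest. The 150 bases before the start site are shown for 5 genes, written 5′ to 3′ on the coding strand with matches in capitals: Mrpl9 and Mrpl46, with the smallest adjusted p at 7 d, 1 with and 1 without a match, Mrps18a and Mrps27, called genes with ETS letters, and Mrpl3, the member with the most negative change, which has them too.
Mrpl9, chr3:94443186-94443335, plus strand: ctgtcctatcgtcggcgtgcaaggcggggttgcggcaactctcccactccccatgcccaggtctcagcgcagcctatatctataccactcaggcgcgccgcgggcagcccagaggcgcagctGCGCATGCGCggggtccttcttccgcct
Mrpl46, chr7:78783090-78783239, minus strand: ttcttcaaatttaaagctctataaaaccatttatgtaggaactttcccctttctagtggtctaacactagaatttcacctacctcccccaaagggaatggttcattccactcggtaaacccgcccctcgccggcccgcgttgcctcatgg
Mrps18a, chr17:46110854-46111003, plus strand: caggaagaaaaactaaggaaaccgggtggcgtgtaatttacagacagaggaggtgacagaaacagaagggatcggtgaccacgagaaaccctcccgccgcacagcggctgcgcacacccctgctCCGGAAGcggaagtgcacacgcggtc
Mrps27, chr13:99344636-99344785, plus strand: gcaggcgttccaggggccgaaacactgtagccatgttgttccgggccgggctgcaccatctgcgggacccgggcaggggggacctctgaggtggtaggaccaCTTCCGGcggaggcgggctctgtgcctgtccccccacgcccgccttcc
Mrpl3, chr9:105053118-105053267, plus strand: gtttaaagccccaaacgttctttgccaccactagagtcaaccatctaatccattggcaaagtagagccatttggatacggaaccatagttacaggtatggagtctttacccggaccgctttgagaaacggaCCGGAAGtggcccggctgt

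In the Mrpl9 window the NRF1 letters start 28 bases before the start site and read the same motif on both strands, as overlapping matches. ETS letters begin 26 bases before the start site in Mrps18a, 48 bases before in Mrps27 and 19 bases before in Mrpl3. Mrpl46 has none of the searched letters in its window, and Mrpl19, another called gene, had no window. Whether these letters bear on any change was not tested.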

How the data were processed

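The authors sequenced ventricular poly(A)+ RNA and mapped reads to mm9, and their processing notes name Bowtie and TopHat without versions. They deposited RPKM values per gene and heart. All 15 columns were matched to samples by title, and groups came from the labels. The title code, the meaning of which is not given, was not in the model. The labels of induced mice also mention a Celf1 cassette, at odds with the genotype given beside it, which was not used.

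Genes averaging at least 1 RPKM over the 15 hearts were kept (10557), and their log2(RPKM + 0.5) entered limma 3.58.1 (R 4.3.3) with an intensity-dependent prior variance. All 5 groups shared 1 fit without covariates, and a gene was called at an adjusted p (Benjamini-Hochberg over all genes tested) under 0.05. Fold changes are on the log2(RPKM + 0.5) scale, and the fit was tested on simulated data. Replicates are separate animals. Figures and counts were made with Python 3.11.15.

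The members and gene lists were chosen with earlier results of these data known. Named were the 10 called genes of smallest adjusted p per direction and comparison, the 5 highest and 5 lowest levels, the 3 most positive and 3 most negative changes per comparison, the genes whose symbol does not match their place, called genes of the lists (at most 5 each) and the 5 genes most like the family's mean. Mrpl2, Mrpl35, Mrpl40, Mrpl43, Mrps11, Mrps34, Mrpl52, D10Ertd322e and, among the lists, uncalled genes were named after their values were seen. Alternatives covered pseudocounts of 0.1 and 1, no filter and a mean of at least 5 RPKM, median-ratio and quantile scaling, the title code, Y-linked mRNA (Ddx3y, Eif2s3y, Uty and Kdm5d) or both as covariates, fits of the 2 groups alone, and leaving out each heart. Promoter windows were taken from RefSeq by gene identifier. Current symbols were matched for 16146 of 16199 identifiers, and for all 72 members.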

Additional observations from a re-analysis of the deposited data

How the results depend on the processing

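With the title code as a covariate, 4 members were called at 12 h (2 higher, 2 lower), 2 at 24 h and 14 at 72 h, when 1.11% of all genes tested were higher and 6.2% lower at 12 h, 0.549% and 2.54% at 24 h, and 1.25% and 3.44% at 72 h. With Y-linked mRNA as a covariate, the counts were 0 at 72 h, 5 at 7 d and 1 for 7 d against 12 h. Called higher in these fits were 0.0284%, 2.29% and 1.5% of all genes tested. With both covariates the counts were 2 at 12 h (1 higher, 1 lower), 0 at 24 h and 0 at 72 h. For 7 d they were 6 against control and 4 against 12 h. Beside them, 0.919% of all genes tested were higher and 3.38% lower at 12 h. For 7 d, 0.673% were higher against control and 0.322% against 12 h. Fits of the 2 groups alone gave 0 at 72 h and 8 for 7 d against 12 h, and median-ratio scaling 12 for the latter. The 8 were all higher, beside 5.3% of all genes tested. Of the 12, 10 were higher and 2 lower, beside 7.18% and 7.49%. Leaving out each heart gave 0 to 2 called members at 72 h, 6 to 13 at 7 d and 8 to 18 for 7 d against 12 h. In the same fits 0.00947% to 0.521%, 2.96% to 4.69% and 5.74% to 17.2% of all genes tested were called higher. The single hearts that moved these counts by over 1.5 times were 72 h replicates 1 and 2 and each control (0 each), for 7 d against control 7 d replicate 2 (6), 7 d replicate 3 (7) and control replicate 1 (7), and for 7 d against 12 h 12 h replicate 2 (11) and 7 d replicates 2 and 3 (8 each).

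The median log2 change of the members moved under median-ratio scaling from -0.01 to 0.093 at 12 h, from 0.03 to 0.14 at 24 h, from 0.12 to 0.20 at 72 h and from 0.22 to 0.083 for 7 d against 12 h. Quantile normalization gave 0.067 at 12 h and 0.081 for 7 d against 12 h. Median-ratio scaling moved the median of all genes tested to 0.00 at 24 h, from -0.10, and to 0.01 for 7 d against 12 h, from 0.13. Among called genes and comparisons, 1 sign changed, that of Mrps23 for 7 d against 12 h, from 0.30 to -0.0054 with both covariates, and the other changes of sign below were in uncalled genes. At 24 h Mrpl34 ranged from -0.47 to 0.025 and Mrps12 from -0.28 to 0.018 over fits without 1 heart, above 0 without 24 h replicate 1 and, for Mrpl34, without control replicate 2. At 72 h Mrpl34 was 0.12 with the title code and 0.32 with both covariates, and Mrpl54 was 0.089 and 0.65, and ranged from -0.40 to 0.058 over fits without 1 heart, above 0 without control replicate 2. Mrpl23 was 0.10 at 7 d with Y-linked mRNA and 0.24 with both covariates. The causes were not tested.

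No paired analysis was possible because replicate numbers were given in accession order and do not link animals across groups. Depth is unknown, and 3 hearts per group, the uneven spread of title codes and of Y-linked mRNA over time and single values per gene limit what these comparisons resolve.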
